A study of Homo sapiens with 16 samples.

Results

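The genes described here encode the positive transcription elongation factor P-TEFb and the complex that holds it inactive: the kinase CDK9, the cyclins CCNT1 and CCNT2, the inhibitors HEXIM1 and HEXIM2, the 7SK RNA (RN7SK), and the 7SK-binding proteins MEPCE and LARP7. They were chosen by name, and all 8 were found among the 60252 genes of the deposited count table. RNA of LNCaP cells, a human prostate cancer line that grows in culture and depends on androgen signalling, was sequenced in 16 samples that formed 8 groups of 2. Cells in 3 arms had siRNA for 48 hours, either a scrambled sequence (Scr) or 1 of 2 siRNAs against OGT, the O-GlcNAc transferase (siOGT1 and siOGT2). The fourth arm is labelled OSMI2, a small-molecule OGT inhibitor. Its dose and time, and whether scrambled siRNA was also present, are not given here. In every arm cells had the vehicle DMSO or 0.5 μM AT7519, an inhibitor of several cyclin-dependent kinases including CDK9, for the last 4 hours. All samples come from 1 cell line, and the labels do not state that replicates were separate cultures. P-values therefore reflect only the variation among these libraries, part or all of which may be technical.

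P-TEFb is a CDK9 kinase bound to cyclin T1 or T2. It phosphorylates RNA polymerase II and the factors that hold the polymerase paused near the start of genes, which lets the polymerase elongate. Part of the P-TEFb in a cell is kept inactive on the 7SK RNA, a transcript of RNA polymerase III that MEPCE caps at its 5′ end and LARP7 binds at its 3′ end, and on which HEXIM1 or HEXIM2 blocks the kinase.

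Libraries held 40216911 to 147019364 counts, and 23830 genes passed the filter on low counts and were tested. Of the 8 members, 7 were among them, and RN7SK was not. OGT, the target of both siRNAs, stood at 255.5 to 314.3 CPM (counts scaled to a common library total with TMM factors) in the Scr samples, at 10.98 to 36.0 CPM in the samples labelled siOGT1 or siOGT2, and at 335.9 to 421.5 CPM in OSMI2. All 10 luminal prostate markers examined reached 1 CPM on average, whereas 0 of 3 basal and 0 of 2 leukocyte markers did. Of the stromal markers 1 of 3 did, with a summed level of 10.8 to 29.5 CPM under DMSO and 12.2 to 40.9 CPM with AT7519, and their part in the results was not tested.

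The start sites of HEXIM1 and MEPCE, 2 members whose transcripts fell with AT7519, are shown beside that of CDK9, whose transcript rose. Each line gives 50 bases before and 10 bases from the first start site, from the RefSeq table on GRCh38.p14, on the plus strand of chr17:45148425-45148484, chr7:100428740-100428799 and chr9:127785984-127786043. Capitals mark the letters TATAA, the core of the TATA box.
HEXIM1: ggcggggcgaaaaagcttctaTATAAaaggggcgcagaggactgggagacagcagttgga
MEPCE: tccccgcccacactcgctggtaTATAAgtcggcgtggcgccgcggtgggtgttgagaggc
CDK9: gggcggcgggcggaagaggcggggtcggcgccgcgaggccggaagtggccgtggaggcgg
TATAA began 29 bases before the start of HEXIM1 and 28 bases before that of MEPCE, and the CDK9 window held none. MEPCE has 3 listed start sites, and only the first held TATAA on the sense strand of its 300-base window. HEXIM2, which fell too, had no TATAA upstream of either of its 2 listed start sites, and at the first of them the letters began 24 bases after the start. Read on the sense strand between 40 and 15 bases before the start, it occurred at 2 of the 12 start sites listed for the 7 members with an entry, and at 4.06% of all 35114 start sites in the table. In the whole 300-base window and on either strand it occurred in 20.4% of them. The motif was chosen after these sequences were seen, and its presence is a description of the letters only.

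AT7519 moved the members apart. Changes are relative to the bulk of genes, which TMM scaling centres near 0. Whether the amount of each RNA per cell changed was not tested. Within each arm the kinase CDK9 and the cyclin gene CCNT2 rose, both HEXIM transcripts fell, and MEPCE fell furthest, while LARP7 passed the test in none of the arms. In Scr, 2 of the 7 tested members rose, against 21.8% of all tested genes, and 3 fell, against 24.6% (edgeR quasi-likelihood test, adjusted p under 0.05). In siOGT1 the counts were 2 higher, beside 19.4% of all genes, and 3 lower, beside 22.0%. In siOGT2 they were again 2, beside 22.2%, and 3, beside 22.8%, and in OSMI2 2, beside 23.6%, and 4, beside 23.6%, the fourth being CCNT1. With 7 members such counts say little beyond the background shares, and the size of each change is given gene by gene. The arms share neither samples nor controls in these 4 comparisons. They are not independent repeats, however. Differences between replicates 2 and 1 correlated between the siRNA arms of 1 agent (r 0.603 to 0.734), and all arms share 1 fit.

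**Figure D1:**
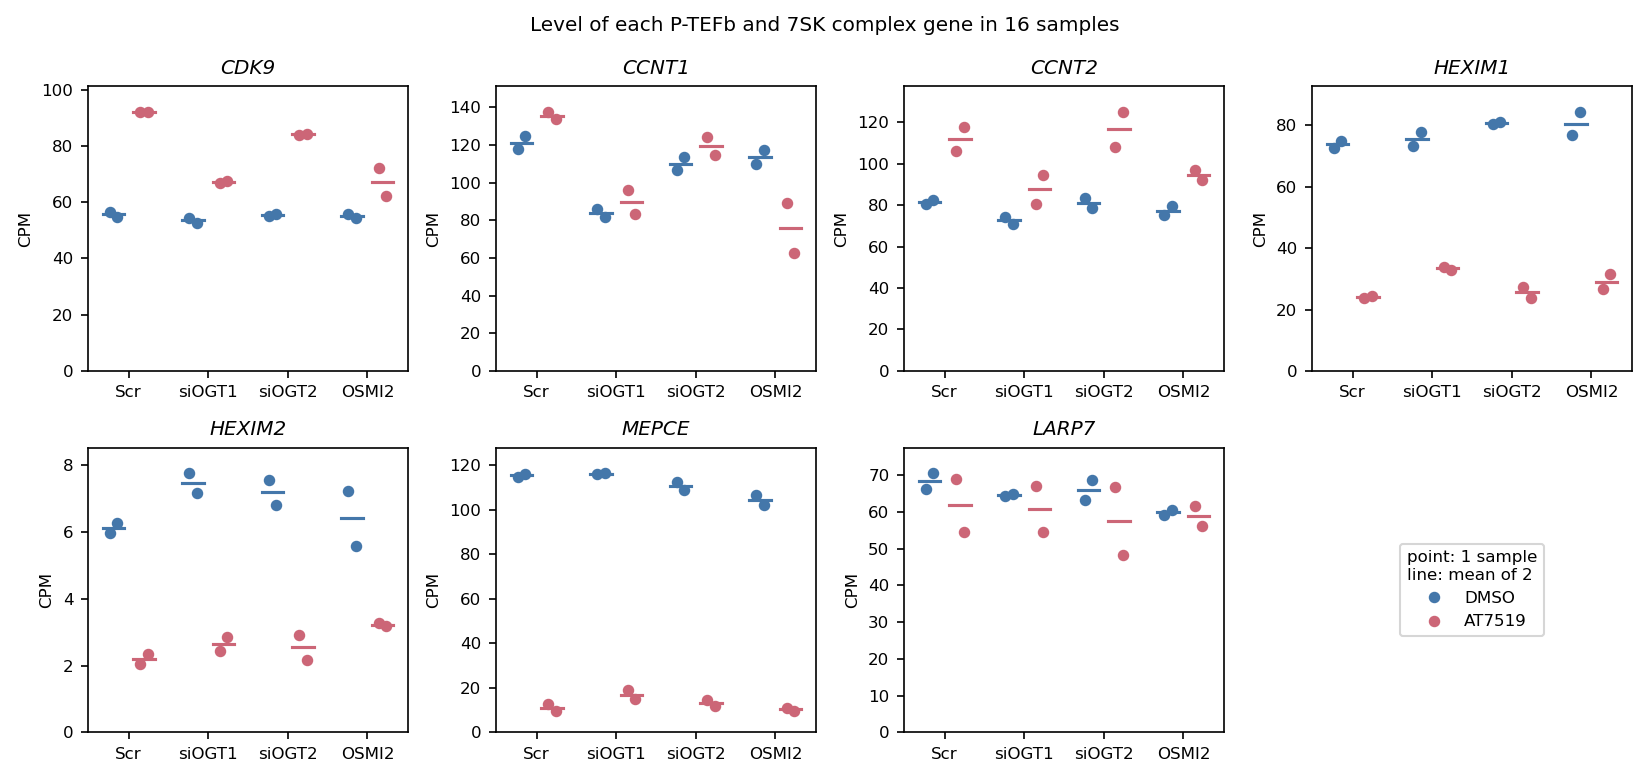
Level of each tested member in CPM in all 16 samples, by arm, with DMSO in blue and AT7519 in red; each point is 1 sample and each line the mean of 2. MEPCE and both HEXIM genes are lower in every AT7519 sample than in any DMSO sample, CDK9 is higher in every AT7519 sample, and the LARP7 samples overlap in all 4 arms.

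CDK9 (ENSG00000136807, chromosome 9, up to 7 exons), the kinase subunit, rose with AT7519 relative to the bulk of genes. In Scr it stood at 56.4 and 54.8 CPM under DMSO and at 91.98 and 92.05 CPM with AT7519. In siOGT1 it went from 54.4 and 52.7 to 66.6 and 67.6 CPM, and in siOGT2 from 55.0 and 55.8 to 83.9 and 84.2 CPM. OSMI2 samples had 55.7 and 54.5 CPM under DMSO and 72.0 and 62.0 CPM with AT7519. All 8 DMSO samples thus lay within 52.7 to 56.4 CPM, and every AT7519 sample lay above them, highest in Scr and lowest in OSMI2 replicate 2. The rise was 1.65-fold in Scr (log2 fold change 0.73, SE 0.08, adjusted p = 3.66e-07), 1.25-fold in siOGT1 (0.33, SE 0.08, adjusted p = 0.00256), 1.52-fold in siOGT2 (0.60, SE 0.08, adjusted p = 4.7e-06) and 1.22-fold in OSMI2 (0.28, SE 0.08, adjusted p = 0.00629). The OSMI2 rise was lost without its AT7519 replicate 1 (0.12, adjusted p = 0.294) and with no filter on low counts (0.23, adjusted p = 0.0638). Scaled by library size only, with no TMM factor, the rise was 0.48 in Scr (adjusted p = 6.11e-05) and 0.34 in siOGT2 (adjusted p = 0.00205), and no longer passed in siOGT1 (0.10, adjusted p = 0.333) and OSMI2 (0.04, adjusted p = 0.749).

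CCNT1 (ENSG00000129315, chromosome 12, up to 9 exons) encodes cyclin T1, the main partner of CDK9. Scr samples had 117.9 and 124.5 CPM under DMSO and 137.5 and 133.5 CPM with AT7519. In siOGT1 the values were 85.9 and 81.5 under DMSO and 96.2 and 83.2 CPM with AT7519, and in siOGT2 106.6 and 113.6, then 124.2 and 114.8 CPM. OSMI2 samples had 109.7 and 117.1, then 89.1 and 62.7 CPM. AT7519 samples were above DMSO samples in Scr and siOGT2, overlapped them in siOGT1, and were below them in OSMI2. The log2 fold changes of 0.16 (SE 0.11, adjusted p = 0.266) in Scr, 0.10 (adjusted p = 0.521) in siOGT1 and 0.12 (adjusted p = 0.427) in siOGT2 did not pass the test, and all 3 were below 0 with library size only, while upper-quartile scaling gave a call in Scr (0.31, adjusted p = 0.0302). In OSMI2, CCNT1 fell 1.49-fold (-0.58, SE 0.12, adjusted p = 0.000332). Its size there rested on the spread between the AT7519 samples, being -0.90 without replicate 1 (adjusted p = 5.22e-06) and -0.37 without replicate 2 (adjusted p = 0.00934), the library with the lowest total count of the series.

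CCNT2 (ENSG00000082258, chromosome 2, up to 11 exons) encodes cyclin T2, the alternative partner. It stood at 80.7 and 82.3 CPM in Scr under DMSO and at 105.9 and 117.8 CPM with AT7519. In siOGT1 it went from 74.4 and 70.8 to 80.7 and 94.5 CPM, in siOGT2 from 83.6 and 78.8 to 108.2 and 125.0 CPM, and in OSMI2 from 75.1 and 79.5 to 97.2 and 92.4 CPM. AT7519 samples lay above the DMSO samples of their arm in all 4 arms. The rise was 1.37-fold in Scr (0.46, SE 0.09, adjusted p = 0.000345) and 1.44-fold in siOGT2 (0.52, SE 0.09, adjusted p = 0.000102). It was 1.21-fold in siOGT1 (0.27, SE 0.09, adjusted p = 0.0219) and 1.23-fold in OSMI2 (0.29, SE 0.09, adjusted p = 0.0119). The siOGT1 rise was lost without DMSO replicate 1 (0.31, adjusted p = 0.0534), DMSO replicate 2 (0.24, adjusted p = 0.132) or AT7519 replicate 2 (0.18, adjusted p = 0.219) and with a stricter filter on low counts (0.21, adjusted p = 0.0883), and the OSMI2 rise without DMSO replicate 1 (0.26, adjusted p = 0.0941) or AT7519 replicate 1 (0.21, adjusted p = 0.158). With library size only, CCNT2 passed in siOGT2 alone (0.26, adjusted p = 0.0487), with 0.21 in Scr (adjusted p = 0.0995). CCNT2-AS1, an antisense gene sharing 148 exonic bases with CCNT2, held at most 85 counts in any sample.

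HEXIM1 (ENSG00000186834, chromosome 17, a single exon), which encodes the main inhibitor of P-TEFb, fell. P-TEFb activity itself was not tested. Scr samples had 72.8 and 75.0 CPM under DMSO and 23.9 and 24.5 CPM with AT7519. The siOGT1 samples went from 73.3 and 78.0 to 34.0 and 32.8 CPM, and the siOGT2 samples from 80.6 and 81.2 to 27.3 and 23.9 CPM. OSMI2 samples went from 76.7 and 84.4 to 26.7 and 31.5 CPM. The highest AT7519 sample stood at 34.0 CPM, below the lowest DMSO sample at 72.8 CPM, and the least lowered samples were those of siOGT1. HEXIM1 was left at 32.8% of its DMSO level in Scr (-1.61, SE 0.10, adjusted p = 1.71e-10), 44.2% in siOGT1 (-1.18, SE 0.09, adjusted p = 9.94e-09), 31.6% in siOGT2 (-1.66, SE 0.10, adjusted p = 1.9e-10) and 36.0% in OSMI2 (-1.47, SE 0.10, adjusted p = 2.86e-10). HEXIM2-AS1, which shares 520 exonic bases with HEXIM1 on the other strand, fell as well in Scr, from 1.49 to 0.571 CPM on average (-1.37, SE 0.31, adjusted p = 0.000942). Whether the counting used strand is not stated in any source at hand, so reads of such pairs cannot be assigned with certainty, though the antisense gene had far fewer counts.

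HEXIM2 (ENSG00000168517, chromosome 17, up to 4 exons), the less abundant paralog, neighbours HEXIM1 and fell in parallel. Its Scr samples had 5.97 and 6.28 CPM under DMSO and 2.04 and 2.36 CPM with AT7519. The siOGT1 samples went from 7.76 and 7.18 to 2.44 and 2.86 CPM, the siOGT2 samples from 7.56 and 6.83 to 2.93 and 2.17 CPM, and the OSMI2 samples from 7.25 and 5.59 to 3.28 and 3.19 CPM. All AT7519 samples were below all DMSO samples. The log2 fold change was -1.47 in Scr (SE 0.19, adjusted p = 2.26e-06), -1.490 in siOGT1 (SE 0.18, adjusted p = 1.98e-06), -1.496 in siOGT2 (SE 0.19, adjusted p = 2.18e-06) and -0.99 in OSMI2 (SE 0.19, adjusted p = 0.000172). HEXIM2 had 110 to 1243 counts per library, so its errors are the widest among the tested members. The antisense gene ENSG00000267288, which shares 1026 exonic bases with it, held at most 25 counts.

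MEPCE (ENSG00000146834, chromosome 7, up to 5 exons) encodes the methyltransferase that caps and stabilises 7SK, and it had the largest fall of the members. In Scr it stood at 114.7 and 116.1 CPM under DMSO and at 12.8 and 9.42 CPM with AT7519. In siOGT1 it went from 116.0 and 116.3 to 19.0 and 14.9 CPM, and in siOGT2 from 112.3 and 108.8 to 14.7 and 11.8 CPM. In OSMI2 it went from 106.6 and 101.9 to 11.2 and 9.77 CPM. The lowest DMSO sample of any arm, at 101.9 CPM, was far above the highest AT7519 sample, at 19.0 CPM. MEPCE fell 10.4-fold in Scr (-3.38, SE 0.14, adjusted p = 2.13e-12), 6.89-fold in siOGT1 (-2.78, SE 0.13, adjusted p = 2.81e-11), 8.32-fold in siOGT2 (-3.06, SE 0.14, adjusted p = 1.04e-11) and 9.91-fold in OSMI2 (-3.31, SE 0.14, adjusted p = 2.46e-12). Ranked by log2 fold change among the 10023 genes with a mean log2 CPM of at least 3, MEPCE was number 3 from the lowest in Scr and siOGT1, number 2 in siOGT2 and number 5 in OSMI2. HEXIM1 held places 150, 379, 106 and 330 from the lowest in the same order. ZCWPW1, which shares 203 exonic bases with MEPCE on the other strand, had mean levels of 2.94 CPM under DMSO and 2.92 CPM with AT7519 in Scr (0.009, SE 0.20, adjusted p = 0.976).

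LARP7 (ENSG00000174720, chromosome 4, up to 15 exons) encodes the La-related protein that stays bound to the 3′ end of 7SK. Scr samples had 66.4 and 70.5 CPM under DMSO and 69.0 and 54.6 CPM with AT7519. The siOGT1 samples had 64.3 and 65.0, then 67.0 and 54.6 CPM, and the siOGT2 samples 63.2 and 68.7, then 66.7 and 48.3 CPM. OSMI2 samples had 59.2 and 60.7, then 61.6 and 56.3 CPM. In each arm AT7519 replicate 2 was below replicate 1, and the AT7519 samples overlapped the DMSO samples in all 4 arms. The log2 fold changes were -0.15 (adjusted p = 0.384), -0.09 (adjusted p = 0.621), -0.20 (adjusted p = 0.244) and -0.02 (adjusted p = 0.903), with SEs of 0.13. The call moved with the scaling: with library size only LARP7 was lower in Scr (-0.40, adjusted p = 0.00734), siOGT1 (-0.32, adjusted p = 0.0311) and siOGT2 (-0.47, adjusted p = 0.00242). Without AT7519 replicate 1, LARP7 was also lower in siOGT2 (-0.44, adjusted p = 0.0125). Library-size scaling shifted the median of all genes in Scr from -0.05 to -0.30, so changes are relative to the bulk of genes.

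**Figure D2:**
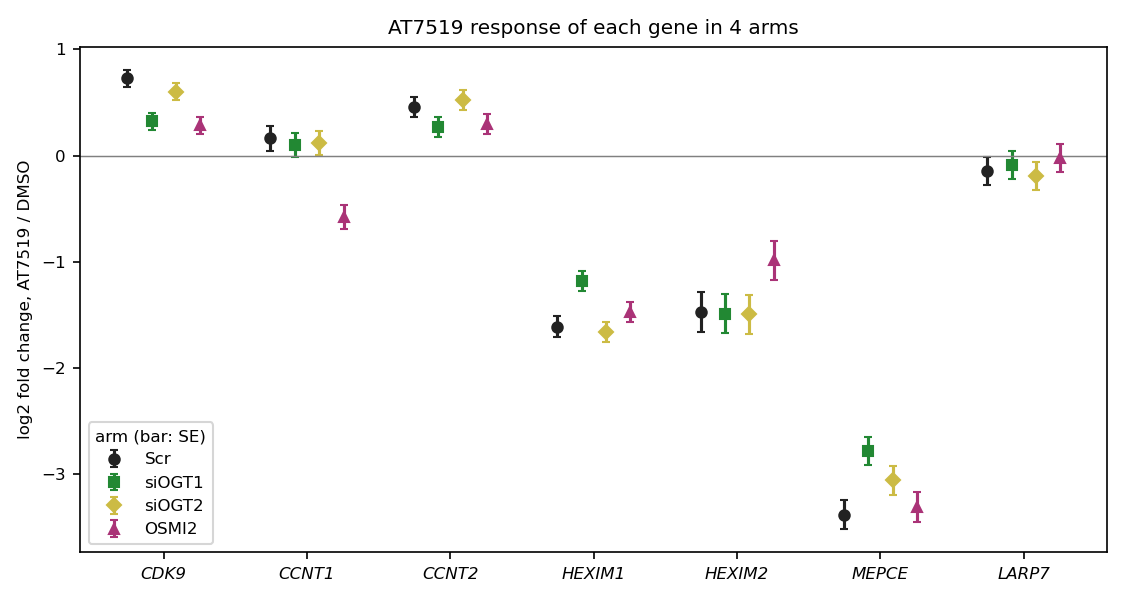
Log2 fold change of AT7519 against DMSO for each member in the 4 arms (symbols), with bars for the SE of the edgeR fit. MEPCE lies at -2.78 to -3.38, HEXIM1 and HEXIM2 at -0.99 to -1.66, CDK9 and CCNT2 at 0.27 to 0.73, LARP7 near 0, and CCNT1 is below 0 in OSMI2 at -0.58.

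**Figure D3:**
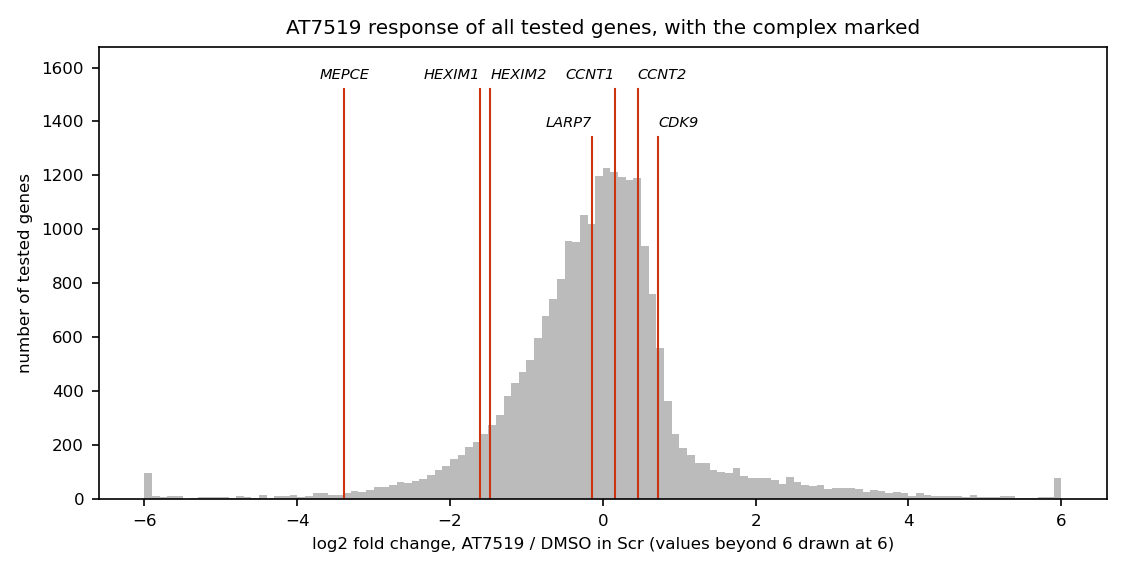
Histogram of the log2 fold changes of all 23830 tested genes for AT7519 against DMSO in Scr, with vertical lines for the 7 tested members. MEPCE at -3.38 lies in the lower tail, HEXIM1 and HEXIM2 at -1.61 and -1.47 on the lower shoulder, and the other 4 within the bulk of genes or at its upper edge.

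RN7SK (ENSG00000283293, chromosome 6), the RNA on which the inhibitory complex forms, has 328 bases in 1 exon. The first 110 bases, from the GENCODE v29 transcript, are shown because this end of the RNA holds the HEXIM binding site. Capitals mark each GATC (GAUC in the RNA), the letters of a repeat known for that binding. Not every marked copy need belong to the site.
RN7SK: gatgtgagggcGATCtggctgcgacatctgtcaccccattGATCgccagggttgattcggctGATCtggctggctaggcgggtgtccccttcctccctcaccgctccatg
All 3 GATC of the RNA lie in this stretch. RN7SK was listed at 0 counts in all 16 samples, which allows 0.0204 to 0.0746 CPM of the unscaled library total for that entry (3 counts, counting error only). A second entry, 7SK (ENSG00000202198), covers the same 328 bases on the same strand and was also listed at 0 in all 16. No source at hand states how reads that fall in 2 entries were treated, and the zeros say nothing about the amount of 7SK RNA in the cells. Among transcripts of the same polymerase, RNY3 and VTRNA2-1 were at 0 too, whereas VTRNA1-3 had 17 to 98 counts. The 289 pseudogene entries named RN7SKP held 221 to 792 counts per sample in all, and of the 21 tested ones 3 rose in Scr with AT7519 and 0 fell, beside 21.8% and 24.6% of all genes. In siOGT1 4 rose and 0 fell (all genes 19.4% and 22.0%), and in siOGT2 5 and 0 (22.2% and 22.8%). In OSMI2 5 rose and 1 fell (23.6% each way). GSTA4, which lies 243 bases from RN7SK on the other strand, had a log2 fold change of 0.25 (SE 0.10, adjusted p = 0.0426).

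Levels per exon length put the members in different orders with the 2 agents. The scale is CPM per kb of annotated exon, as the mean of 2 samples with its SD. In Scr under DMSO, MEPCE was highest at 33.8 ± 0.29, followed by HEXIM1 at 20.5 ± 0.45 and CDK9 at 18.5 ± 0.36. LARP7 at 16.8 ± 0.72 and CCNT1 at 16.4 ± 0.64 did not differ beyond their spread, and CCNT2 at 8.97 ± 0.13 and HEXIM2 at 3.01 ± 0.11 were lowest. With AT7519, CDK9 was highest at 30.7 ± 0.015, followed by CCNT1 at 18.4 ± 0.38, LARP7 at 15.1 ± 2.50 and CCNT2 at 12.3 ± 0.93. HEXIM1 at 6.72 ± 0.11, MEPCE at 3.25 ± 0.70 and HEXIM2 at 1.079 ± 0.11 made up the lower end. MEPCE was the highest member under DMSO and CDK9 the highest with AT7519 in all 4 arms.

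**Figure D4:**
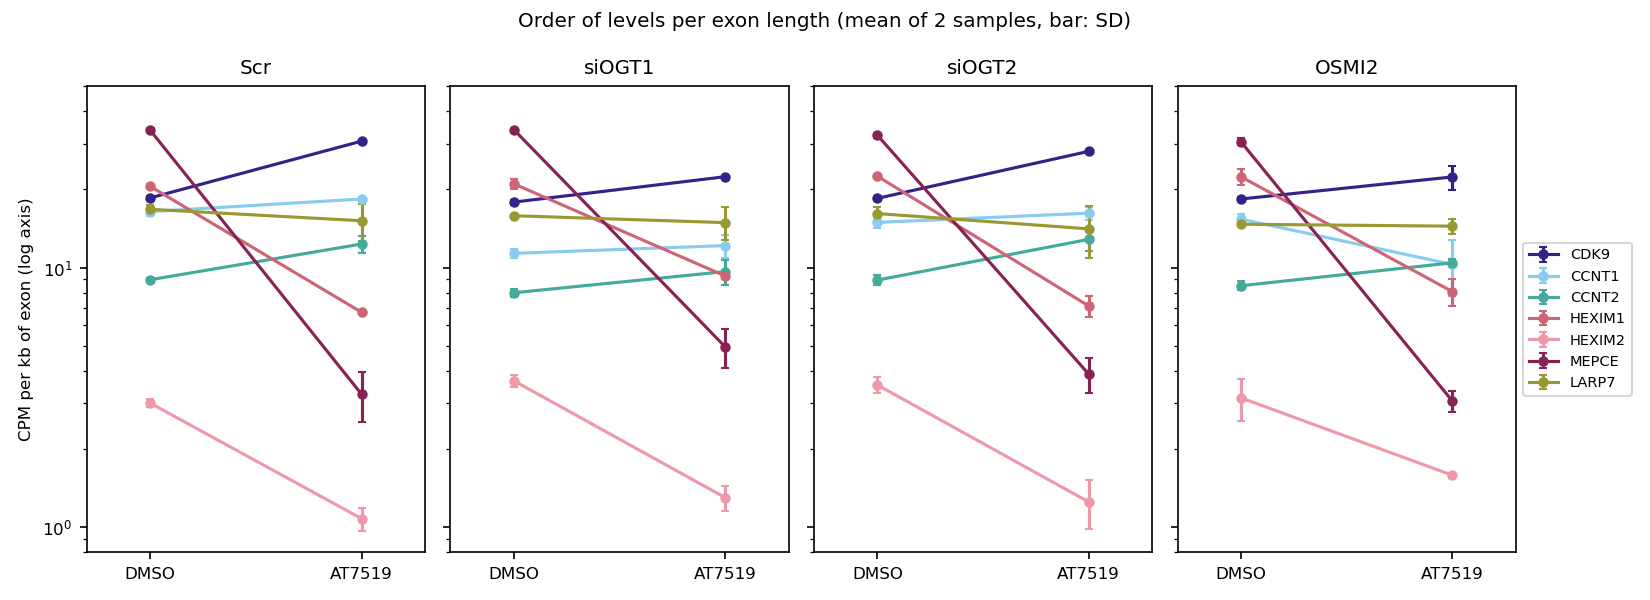
CPM per kb of exon on a log axis for the 7 tested members with DMSO and with AT7519, 1 panel per arm; points are means of 2 samples and bars the SD. MEPCE crosses from the top to the second lowest place in every arm, and CDK9 moves to the top.

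Ratios of counts within a sample do not depend on how libraries are scaled. The ratio of HEXIM1 to CDK9 was 1.29 and 1.37 in Scr under DMSO and 0.260 and 0.266 with AT7519. It went from 1.35 and 1.48 to 0.510 and 0.485 in siOGT1, from 1.47 and 1.46 to 0.325 and 0.283 in siOGT2, and from 1.38 and 1.55 to 0.371 and 0.507 in OSMI2. The ratio, which is not corrected for length, was thus at least 1.29 in the 8 DMSO samples and at most 0.510 in the 8 AT7519 samples. The ratio of MEPCE to LARP7 was 1.73 and 1.65 in Scr under DMSO and 0.185 and 0.173 with AT7519, and the other arms had 0.174 to 0.283 with AT7519. The ratio of HEXIM1 to HEXIM2 lay between 8.14 and 15.1 in all 16 samples, with the ranges of both agents overlapping. The ratio of CCNT1 to CCNT2 was 1.49 ± 0.04 under DMSO and 1.22 ± 0.12 with AT7519 in Scr (SD, n = 2), and 1.47 ± 0.01 and 0.798 ± 0.17 in OSMI2. The siOGT1 means were 1.15 and 1.04 and the siOGT2 means 1.36 and 1.03, so that the mean was lower with AT7519 in all 4 arms, though the siOGT1 samples overlapped.

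**Figure D5:**
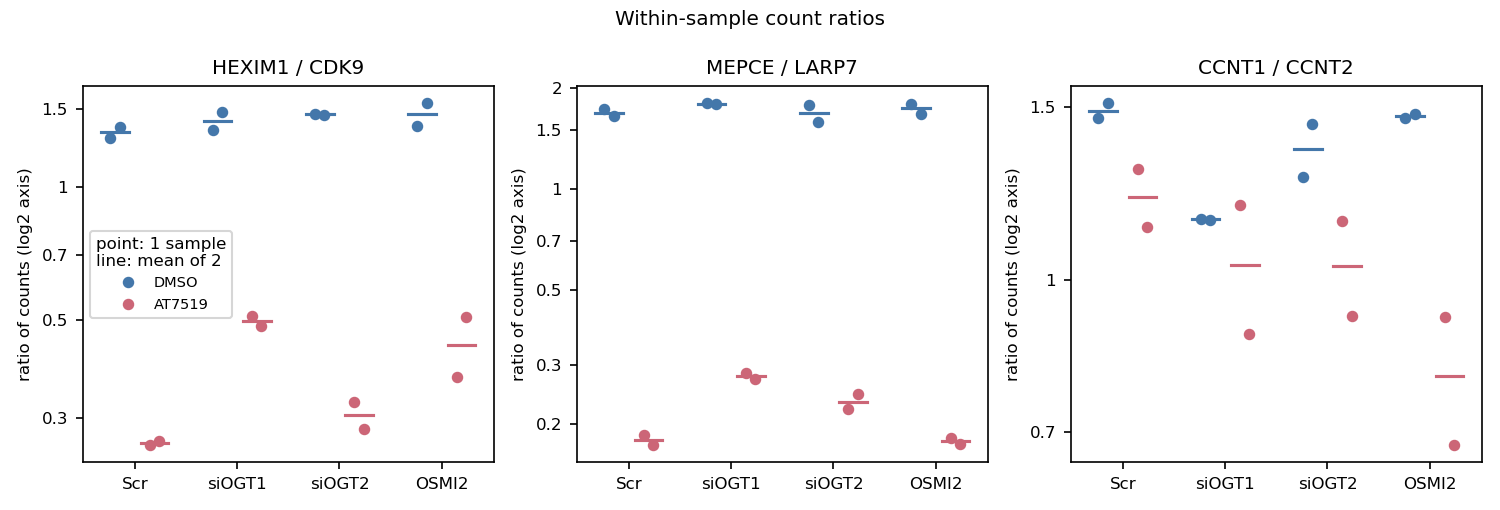
Ratios of counts within each sample on log2 axes, by arm, with DMSO in blue and AT7519 in red; points are samples and lines means of 2. HEXIM1 to CDK9 is above 1 in all DMSO samples and at most 0.510 with AT7519, MEPCE to LARP7 falls from at least 1.58 to at most 0.283, and CCNT1 to CCNT2 has its lowest mean in OSMI2 with AT7519 (0.798), where 1 sample lies among those of siOGT1 and siOGT2.

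Under DMSO, few members differed from Scr in the arms with OGT lowered or inhibited. The siOGT1, siOGT2 and OSMI2 arms share the same 2 Scr samples as controls, so their differences from Scr are not independent. With siOGT1, 1 of 7 members passed the test, against 10.4% of all genes: CCNT1, at 85.9 and 81.5 CPM against 117.9 and 124.5 CPM, fell 1.45-fold (-0.53, SE 0.11, adjusted p = 0.00464). The samples did not overlap, but the call was lost without Scr replicate 2 (-0.49, adjusted p = 0.0542) or without siOGT1 replicate 2 (-0.50, adjusted p = 0.0717). The other 6 members had values from -0.17 (CCNT2) to 0.29 (HEXIM2). With siOGT2, 0 of 7 passed, beside 4.3% of all genes, with values from -0.14 (CCNT1) to 0.23 (HEXIM2). With OSMI2, 0 of 7 passed, beside 2.98%, with values from -0.19 (LARP7) to 0.12 (HEXIM1). In both of these comparisons 0 members had an unadjusted p under 0.05 in edgeR, and DESeq2 and limma voom called 0. CCNT1 was below both Scr samples in all 6 samples of the 3 arms, though it passed the test in siOGT1 alone. Members without a call lay apart from both Scr samples too: CDK9, CCNT2, HEXIM2 and LARP7 in siOGT1, and MEPCE and HEXIM1 in siOGT2 and in OSMI2. The share of all genes that lay apart is not given here, so the separation of CCNT1 has no baseline. Whether the 2 siRNAs differ in CCNT1 was not tested.

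With AT7519 present, siOGT1 cells differed from Scr cells in 5 of 7 members, against 19.2% of all genes. HEXIM1 was higher (0.46, SE 0.10, adjusted p = 0.0016), as was MEPCE (0.61, SE 0.13, adjusted p = 0.0029). CDK9, CCNT1 and CCNT2 were lower: CDK9 by -0.46 (SE 0.08, adjusted p = 0.000408), CCNT1 by -0.60 (SE 0.12, adjusted p = 0.000988) and CCNT2 by -0.35 (SE 0.09, adjusted p = 0.00975). In an edgeR fit of the compared groups only, MEPCE (0.63, adjusted p = 0.0516) and CCNT2 (-0.33, adjusted p = 0.0758) did not pass, which leaves 3 of 7. Without Scr replicate 2 they had smaller changes of 0.41 and -0.27, and without siOGT1 replicate 1 of 0.41 and -0.26. Such fits set differently numbered replicates partly against each other, while same-numbered deviations of these 2 groups correlated across genes (r = 0.684). By number, MEPCE had 12.8 and 9.42 CPM in Scr and 19.0 and 14.9 CPM in siOGT1. CCNT2 had 105.9 and 117.8, then 80.7 and 94.5 CPM. No label ties the numbers. HEXIM2 (0.27, adjusted p = 0.37) and LARP7 (-0.03, adjusted p = 0.925) did not pass. In siOGT2, 0 of 7 passed, against 8.16% of all genes, 0 had an unadjusted p under 0.05, and DESeq2 and limma voom called 0. There the values ran from -0.18 (CCNT1) to 0.26 (MEPCE). In OSMI2, 2 of 7 passed, against 14.2%: CDK9 was lower by -0.46 (SE 0.08, adjusted p = 0.000733) and CCNT1 by -0.83 (SE 0.12, adjusted p = 9.88e-05), and each OSMI2 sample was below each Scr sample in both genes. CCNT1 had -0.63 without OSMI2 replicate 2 (adjusted p = 0.00257) and -1.16 without replicate 1 (adjusted p = 1.18e-05). CCNT2 stood at -0.24 (adjusted p = 0.0893), and passed with DESeq2 (-0.27, adjusted p = 0.041). HEXIM1 at 0.26 (adjusted p = 0.0746) and HEXIM2 at 0.55 (adjusted p = 0.0648) passed with library size only (0.36, adjusted p = 0.0121, and 0.65, adjusted p = 0.0314).

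The difference between arms in the AT7519 response was tested directly as an interaction. For siOGT1 0 of 7 members passed, against 0.0504% of all genes, with 3 members under an unadjusted p of 0.05 in edgeR and 0 called by DESeq2 or limma voom. Those 3 were CDK9 (-0.40, SE 0.11, adjusted p = 0.307), HEXIM1 (0.43, SE 0.13, adjusted p = 0.412) and MEPCE (0.60, SE 0.18, adjusted p = 0.404). The share of all genes under the unadjusted threshold is not given here. For siOGT2 0 of 7 passed, beside 0.0% of all genes, with 0 members under an unadjusted p of 0.05 in edgeR and 0 called by DESeq2 or limma voom. For OSMI2 1 of 7 passed, against 0.747%: the response of CCNT1 was lower than in Scr by -0.74 (SE 0.16, adjusted p = 0.0355). That call was lost in 6 of 8 fits that left out 1 library (adjusted p = 0.0962 to 0.182). The value was -0.69 to -0.78 in 5 of those fits and -0.55 in the one without OSMI2 replicate 2 with AT7519 (adjusted p = 0.121). CDK9 had -0.44 in OSMI2 (SE 0.11, adjusted p = 0.0816), and was called by DESeq2 (-0.47, adjusted p = 0.00801).

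The other genes of the pathway were counted from lists, with AT7519 against DMSO in Scr and the all-gene median of -0.05 as the measure of comparison. Over all tested genes in Scr, 21.8% were called higher and 24.6% lower. Many of these have low counts. In a fit of only the 10023 genes with a mean log2 CPM of at least 3, the shares were 30.9% and 35.4%. Of 12 recruiters of P-TEFb, 2 rose and 5 fell (median -0.13), the former count being a smaller share than over all genes. EAF1, an ELL-associated factor, was among those that rose (0.21, SE 0.08, adjusted p = 0.0342). The lowest were AFF1, a scaffold of the super elongation complex (-1.36, SE 0.13, adjusted p = 5.6e-08), and BRD3, a BET bromodomain protein (-1.06, SE 0.10, adjusted p = 3.16e-08). The recruiters that rose and fell numbered 0 and 5 in siOGT1 (all genes 19.4% and 22.0%), 1 and 5 in siOGT2 (22.2% and 22.8%), and 0 and 8 in OSMI2 (23.6% each way, median -0.60, all genes 0.02). Tested directly, the difference in response between OSMI2 and Scr passed at the adjusted threshold for 0 of the 12 in edgeR and 0 in limma voom, and for 1, ELL, in DESeq2. At an unadjusted p under 0.05 in edgeR, 7 of the 12 passed (median difference -0.27, all genes 0.04). The share of all genes at that threshold is not given here, so this count has no baseline.

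Of 8 genes for the polymerase and pausing factors that P-TEFb phosphorylates or acts beside, 5 rose and 1 fell in every arm (median 0.34 in Scr), beside 19.4% to 23.6% of all genes called higher and 22.0% to 24.6% lower. NELFCD, a subunit of the negative elongation factor, had 0.65 (SE 0.10, adjusted p = 1.25e-05) and SUPT4H1, a subunit of the pausing factor DSIF, 0.46 (SE 0.11, adjusted p = 0.00149). POLR2A, the large subunit of RNA polymerase II and the target of P-TEFb on its tail, fell from 155.2 and 144.4 to 91.2 and 105.5 CPM (-0.61, SE 0.09, adjusted p = 2.41e-05). Of 15 genes for factors that release P-TEFb from 7SK and for other 7SK-bound proteins, 10 rose and 1 fell (median 0.33), beside 21.8% and 24.6% of all genes in Scr. HNRNPA1, which binds 7SK freed of P-TEFb, had 0.64 (SE 0.07, adjusted p = 2e-07), the helicase gene DHX9 had 0.60 (SE 0.07, adjusted p = 1.16e-06), and the phosphatase gene PPM1A fell by 0.29 on the log2 scale (SE 0.11, adjusted p = 0.0393).

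Beside the same 21.8% and 24.6% in Scr, 1 of 7 relatives of LARP7 and MEPCE rose and 4 fell (median -0.34). SSB, the La protein that binds new polymerase III transcripts, rose (0.58, SE 0.08, adjusted p = 7.03e-06). BCDIN3D, the RNA methyltransferase most like MEPCE, fell from 11.3 and 10.5 to 1.43 and 1.86 CPM with a log2 fold change of -2.73 (SE 0.17, adjusted p = 3.99e-10), and LARP4, which binds poly(A) tails, had -1.13 (SE 0.10, adjusted p = 1.13e-08). Of 13 other transcription kinases and partners, 6 rose and 5 fell (median -0.02, all genes 21.8% and 24.6%), from CDK13 (-1.43, SE 0.10, adjusted p = 8.35e-10) and CDK7 (-0.73, SE 0.14, adjusted p = 0.000217) to CDK11A (0.96, SE 0.33, adjusted p = 0.0277) and the cyclin gene CCNL1, the highest of the list. Of 5 cell cycle kinases 3 rose and 1 fell (median 0.55, all genes 21.8% and 24.6%), with CDK4 at 0.74 (adjusted p = 1.18e-06), CDK1 at 0.59 (adjusted p = 4.6e-05) and CDK6 at -0.69 (adjusted p = 0.00852).

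Over the 16 samples the pattern of a gene was compared with that of others by the root mean square difference of centred log2 CPM, among 9892 genes with a symbol and a mean log2 CPM of at least 3. This is a description, since the samples share agents and arms. The genes closest to CDK9 were ZFAND5 (0.0849), DDX20 (0.0852) and SRPRB (0.0916), against a median of 0.336 over all genes. Those closest to HEXIM1 were CREB1 (0.113), SLFN5 (0.136) and USP30 (0.139), against a median of 0.804. Those closest to MEPCE were LENG9 (0.259), SOWAHB (0.332) and FAM200C (0.373), against a median of 1.62. Among the members, CDK9 and CCNT2 were the closest pair (0.111), followed by HEXIM1 and HEXIM2 (0.211), and CDK9 and MEPCE the farthest (1.84).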

How the data were processed

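Gene counts of 16 RNA-seq libraries were analysed, made with a strand-specific kit from total RNA per the labels. The deposited raw counts are whole numbers per gene, made on hg19 (GRCh37). Per the submitters' processing notes, the tools were HTSeq, STAR and DESeq2, with no version or role stated. The authors' deposited normalized signal equals the count divided by 1 size factor per sample (largest relative deviation 5.5e-10). Gene IDs were named through a symbol table (55528 of 60252), with exon numbers, lengths and neighbours from GENCODE v29 (on GRCh38). No coordinate on the build of the counts is given.

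Counts were fitted in R 4.3.3 with edgeR 4.0.16 on 8 groups of 2 (filterByExpr, 23830 genes, TMM, glmQLFit with robust, glmQLFTest, two-sided, 8 residual degrees of freedom) in 13 comparisons. Calls had a Benjamini-Hochberg adjusted p under 0.05 over all tested genes. The SE of a log2 fold change is its size divided by the root of F. CPM used TMM-scaled totals of tested genes. Replicates correlated with r 0.978 to 0.989 across genes and differed by more than counting noise. The tests were checked on simulated data. Alternatives were DESeq2 1.42.0, voom in limma 3.58.1, scaling by RLE, by upper quartile or by library size only, other filters, a fit of the compared groups, replicate blocks and each library left out. All members are described; from each list the 2 highest and 2 lowest called genes in Scr are named, except 1 that is not reported here. Members and lists were chosen with earlier results of these data known. Intervals of depth cover counting error only.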

Additional observations from a re-analysis of the deposited data

Results flagged for a closer look

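The AT7519 response of CCNT1, the cyclin T1 gene, differed between OSMI2 and Scr in a direct test of the difference. The interaction was -0.737 on the log2 scale (SE 0.16, edgeR adjusted p = 0.0355), from responses of 0.16 in Scr and -0.58 in OSMI2. Both OSMI2 samples with AT7519 (89.1 and 62.7 CPM) lay below all other Scr and OSMI2 samples, and they were also the most widely spread pair for this gene. The call was lost in 6 of 8 fits that left out 1 library, with values of -0.69 to -0.783 in 5 of them and -0.553 in the one without OSMI2 replicate 2 with AT7519.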

How the results depend on the processing

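The falls of HEXIM1, HEXIM2 and MEPCE with AT7519 passed in all 4 arms under each alternative that tested them; HEXIM2 was not tested when genes under a mean log2 CPM of 3 were dropped. Counts of members called moved as follows. With that filter, AT7519 in siOGT1 had 3 and the OSMI2 interaction 0. Without a low-count filter the siOGT1 interaction had 1 and that of OSMI2 2, and with DESeq2 that of OSMI2 had 2. The fit of the compared groups only gave 3 for siOGT1 against Scr with AT7519, and upper-quartile scaling and library size only each gave 4 for OSMI2 against Scr with AT7519. With single libraries left out, siOGT1 against Scr ran from 0 to 1 under DMSO and from 3 to 5 with AT7519, and the OSMI2 interaction from 0 to 2.

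Replicates carry only the numbers 1 and 2. Over 10023 genes, same-numbered deviations correlated at r 0.603 to 0.734 between siRNA arms of 1 agent. Between OSMI2 and the siRNA arms of 1 agent, r was 0.0475 to 0.178. Between agents it was -0.135 to 0.434, highest between the 2 OSMI2 groups. With only 2 pairs in a comparison and no label that ties the numbers, the samples were not treated as paired. A replicate block changed the count only for the OSMI2 interaction, to 2. A replicate block within agent gave 1 for siOGT2 and 5 for OSMI2 against Scr with AT7519, 2 for the siOGT1 interaction (CDK9, -0.401, adjusted p = 0.0429, and MEPCE, 0.603, adjusted p = 0.00229) and 2 for that of OSMI2. It also gave 6 for AT7519 in siOGT2, where LARP7 was called (-0.211, adjusted p = 0.0185).

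Among values that did not pass, CCNT1 turned sign with library size only in Scr (-0.086), siOGT1 (-0.126) and siOGT2 (-0.149), and LARP7 with upper-quartile scaling in Scr (0.001), siOGT1 (0.042) and OSMI2 (0.149). Leaving out libraries, LARP7 ran from -0.295 to 0.021 in Scr, -0.239 to 0.078 in siOGT1, -0.444 to 0.015 in siOGT2 and -0.138 to 0.015 in OSMI2, and CCNT1 in siOGT1 from -0.003 to 0.227. The cause was not tested. Calls over all genes ran from 6640 to 12342 for AT7519 in Scr, 6203 to 11317 in siOGT1, 6386 to 11996 in siOGT2 and 6989 to 12522 in OSMI2, beside 11072, 9880, 10728 and 11236. Against Scr under DMSO they ran from 790 to 4387 (siOGT1), 184 to 2574 (siOGT2) and 9 to 2391 (OSMI2), beside 2479, 1025 and 710, and with AT7519 from 2585 to 6596, 309 to 3931 and 1585 to 5555, beside 4566, 1945 and 3382. For the interactions they ran from 3 to 218, 0 to 8 and 28 to 784, beside 12, 0 and 178. With AT7519 against DMSO in Scr the split of higher and lower calls was 28.2% and 19.9% with upper-quartile scaling and 12.7% and 34.4% with library size only. For AT7519 in each arm, the lowest count came with the filter at a mean log2 CPM of 3. That filter left 10023 genes instead of 23830, and the split in Scr was 30.9% and 35.4%.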
